A study of Mus musculus with 17 samples.

Results

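Proteasome genes were examined in RNA of periprostatic fat, the fat around the mouse prostate, from male C57BL/6J mice. The genes were chosen by symbol alone: every gene named Psma, Psmb, Psmc or Psmd followed by a digit and measured by a probe set with 1 gene symbol, with the brightest probe set kept per gene. This gave 39 of the 22180 genes measured. They comprise 6 genes of the alpha rings and 7 of the constitutive beta rings of the 20S core, 3 immunoproteasome catalytic subunits, 6 ATPases and 11 other subunits of the 19S particle, and 3 chaperones that assemble the 19S particle. The remaining 3 are Psma8, a core variant known from testis, Psmb11, a core variant known from thymus, and Psmc3ip, a meiotic recombination protein that shares the symbol's letters but is no proteasome subunit. A further symbol that fitted the rule, Psma4, lies only on probe sets shared with another gene and has no value here.

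The 3 groups were HFD_CR (5 mice), HFD (6 mice) and LFD (6 mice), and RNA of each mouse went to a separate array (Affymetrix, Mouse Gene 2.0 ST). HFD_CR mice ate a diet with 60% of calories as fat from 6 weeks of age for 12 weeks, and for 7 more weeks received 70% of what HFD mice ate, a restriction of 30%. HFD mice ate the same diet freely for both periods, and LFD mice freely ate a diet with 10% of calories as fat. All mice were 25 weeks old at harvest, none carried an engineered allele or a drug treatment according to the labels, and HFD_CR and HFD mice shared the first 12 weeks. The number of arrays, not a read depth, limits the precision of these values.

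The proteasome is the large protease that degrades proteins tagged with ubiquitin. Its barrel-shaped 20S core has outer alpha rings, which gate the entrance, and inner beta rings, in which Psmb6, Psmb7 and Psmb5 carry the caspase-like, trypsin-like and chymotrypsin-like activities. The 19S particle recognises tagged proteins, and its ring of ATPases unfolds them and feeds them into the core. Interferon and cells of the immune system favour a core in which Psmb9, Psmb10 and Psmb8 take the places of Psmb6, Psmb7 and Psmb5, which makes more peptides that fit MHC class I molecules.

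Values are the deposited log2 signals, and a difference of 1 is a doubling of signal. Differences come from limma fitted to all genes on all 17 arrays, and rising or falling means an adjusted p under 0.05 (Benjamini-Hochberg, over all genes of the comparison). Of the 39 genes, 35 were brighter than the median gene, and Psma5, Psma8 and Psmb11 lay below the array median on every array. The SD of a gene over all 17 arrays had a median of 0.108 log2 units among the 39 genes and 0.139 among all genes. Levels of different genes are not compared, because probes differ in brightness.

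Some arrays stood apart. The skeletal muscle list was highest in HFD_CR mouse 2, LFD mouse 2 and LFD mouse 3, and the list of prostate and accessory gland epithelium in HFD mouse 3 and LFD mouse 3, where its mean was 7.75 and 8.12, against at most 5.91 elsewhere. The 4 arrays left out below for muscle or gland transcripts were HFD_CR mouse 2, HFD mouse 3 and LFD mice 2 and 3. HFD mouse 6 and LFD mouse 5, with muscle list means of 8.15 and 8.161, stayed in. The means of HFD_CR mouse 2, LFD mouse 2 and LFD mouse 3 were 9.28, 10.45 and 9.249. LFD mice 3 and 6 carried high thermogenic adipocyte markers.

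In HFD fat 14 of the 39 genes were higher than in LFD fat and 3 were lower. The share higher was 35.9%, against 16.5% of all genes, and the share lower was 7.69%, against 11.3% of all genes. Brighter genes were called more often: with only the genes above the median level fitted, 13 of 35 proteasome genes (37.1%) rose, against 29.9% of all such genes, and 3 of 35 (8.57%) fell, against 18.7%. The share called in either direction, 45.7%, was close to the 48.7% of comparably bright genes. Most changes were small: the median difference was 0.04 log2 units over the 39 genes and -0.0032 over all genes. The largest, of Psmd10, was a rise of just under 1.5-fold. The HFD and LFD mice did not overlap for 10 genes, 9 of them higher and 1 lower (Psmd11), against 9.05% and 5.21% of all genes. With each array centred on its median the split was 10 higher and 3 lower, against 13.9% and 15.1% of all genes, and with quantile normalization repeated it was 10 higher and 4 lower, against 13.7% and 14.9%.

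In HFD_CR fat 9 of the 39 genes were lower than in HFD fat and none was higher. The share lower was 23.1%, against 11.3% of all genes, and 7.69% of all genes were higher. Among the genes above the median level, 10 of 35 proteasome genes (28.6%) fell, against 21.7% of all such genes, and 0 rose, against 15.8% (37.5% of such genes were called in either direction). Differences were negative for 34 of the 39 genes, with a median of -0.09 log2 units, against -0.0024 over all genes. At an unadjusted p under 0.05 limma put 16 genes lower and 1 higher, Psmb3, against 16.3% and 13.4% of all genes. The HFD_CR and HFD mice did not overlap for 9 genes, all lower, against 8.26% of all genes lower and 5.42% higher. HFD mice enter both comparisons, so the 2 sets of differences are not independent of each other.

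Between HFD_CR and LFD fat limma called none of the 39 genes, while it called 9.08% of all genes, 5.8% higher and 3.28% lower. At an unadjusted p under 0.05, 4 genes were lower (Psmb7, Psmd3, Psmd5 and Psmd11) and 1 was higher (Psma8), against 9.12% and 12.9% of all genes. Differences ran from -0.20 for Psmd5 to 0.23 for Psma8, with a median of -0.03. No gene separated the HFD_CR from the LFD mice without overlap, against 6.67% of all genes (4.24% higher and 2.43% lower). With only the genes above the median level fitted, 1 of 35 was called, Psmd5, which was lower, against 20.9% of all such genes (13.3% higher and 7.62% lower). The strongest differences by role, none of which passed, were 0.10 for Psma2 and -0.13 for Psma1 in the alpha rings, -0.14 for Psmb7 and -0.14 for Psmb5 in the beta rings, 0.08 for Psmc3 and -0.08 for Psmc5 among the ATPases, and -0.12 for Psmd3 and -0.10 for Psmd11 in the rest of the 19S particle.

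Without the 4 arrays with muscle or gland transcripts limma called 10 proteasome genes higher and 3 lower in HFD against LFD fat, against 14.8% and 10.2% of all genes, and 7 lower in HFD_CR against HFD fat, against 10.3% of all genes. Without LFD mice 3 and 6, 12 genes were higher in HFD than in LFD fat, against 14.7% of all genes.

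**Figure D1:**
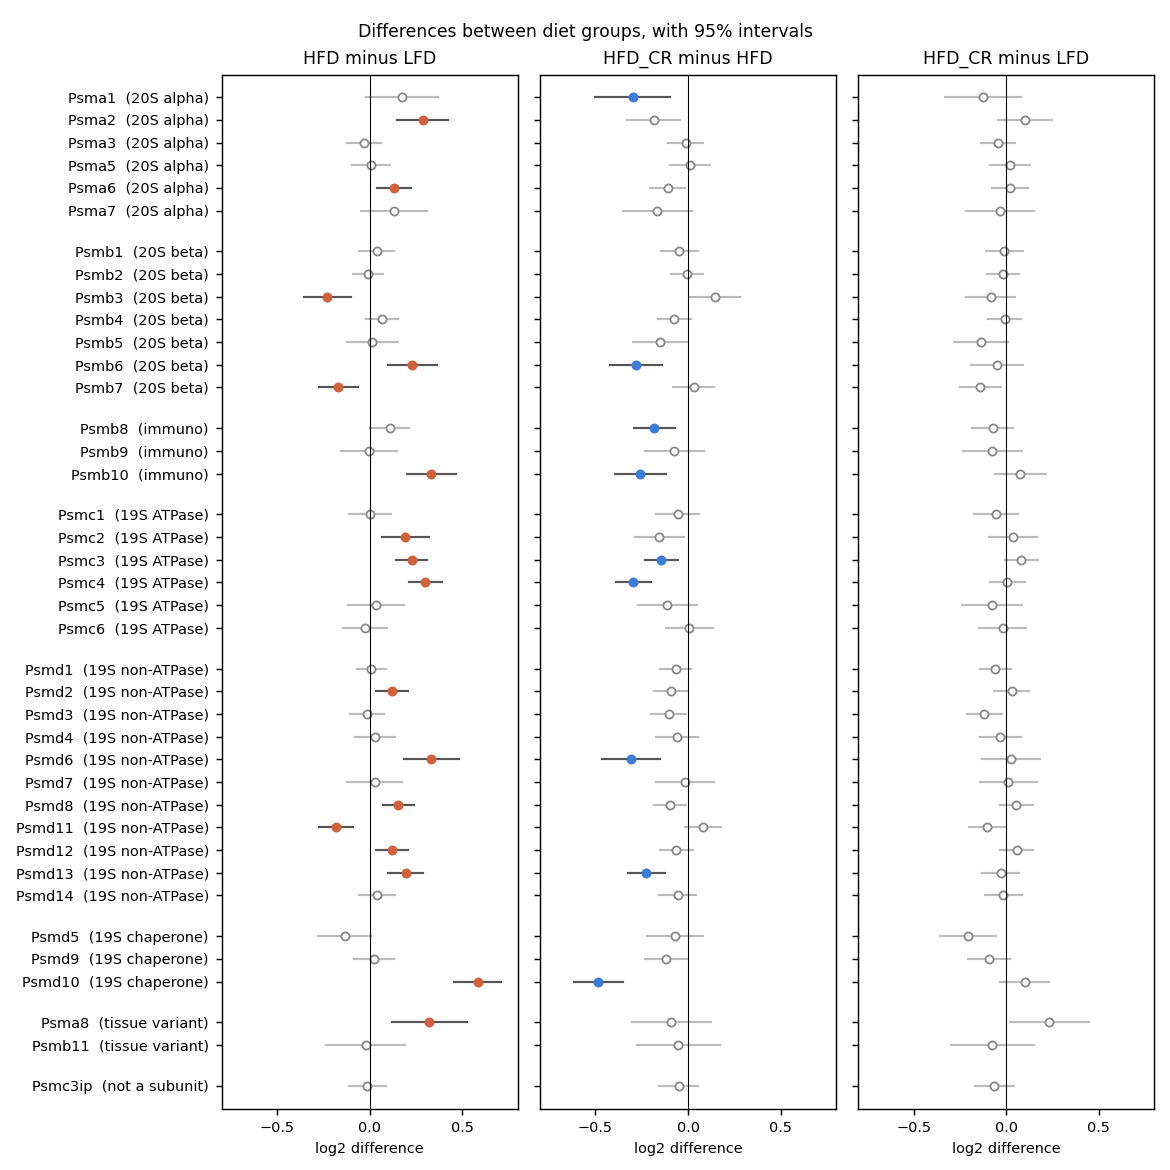
Log2 differences (horizontal axis) of all 39 genes with 95% intervals, with genes grouped by role. The panels show HFD minus LFD on the left, HFD_CR minus HFD in the middle, and on the right HFD_CR minus LFD. Filled points passed the adjusted p and open points did not: 17 are filled on the left, 9 in the middle and none on the right.

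The upstream sequences of 6 genes are shown first. Each of these genes rose in HFD over LFD fat and was lower in HFD_CR than in HFD fat, and RefSeq gives a start site for each. Psmc3 passed in the same 2 comparisons, but no RefSeq window was available for it. The sequences are the 100 bases before the start site, 5′ to 3′ on the strand of the gene, from RefSeq on GRCm38.p6. Capitals mark the letters TGACNNNGC (an antioxidant response element, bound by Nfe2l1 and Nfe2l2) or CCAAT, here read as ATTGG on the other strand.
Psmd10 (chrX:140956712-140956811, minus strand): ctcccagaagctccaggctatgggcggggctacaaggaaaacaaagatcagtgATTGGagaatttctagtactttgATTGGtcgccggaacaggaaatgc
Psmc4 (chr7:28050093-28050192, minus strand): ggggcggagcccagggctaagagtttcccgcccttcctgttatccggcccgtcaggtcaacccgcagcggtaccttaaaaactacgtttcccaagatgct
Psmd6 (chr14:14120946-14121045, minus strand): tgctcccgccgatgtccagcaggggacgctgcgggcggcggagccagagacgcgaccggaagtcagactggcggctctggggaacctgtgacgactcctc
Psmd13 (chr7:140882294-140882393, plus strand): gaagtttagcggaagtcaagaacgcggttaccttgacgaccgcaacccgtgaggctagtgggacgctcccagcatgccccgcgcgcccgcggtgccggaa
Psmb6 (chr11:70525257-70525356, plus strand): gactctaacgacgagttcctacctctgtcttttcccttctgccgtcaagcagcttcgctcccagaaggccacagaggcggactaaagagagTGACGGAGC
Psmb10 (chr8:105938393-105938492, minus strand): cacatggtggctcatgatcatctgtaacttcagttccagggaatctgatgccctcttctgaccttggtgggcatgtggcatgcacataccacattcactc
Psmd10 holds ATTGG at 2 places and Psmb6 ends in the antioxidant element, while none of the 3 motifs searched is in the windows of Psmc4, Psmd6, Psmd13 and Psmb10. Whether fat uses the start sites that RefSeq gives was not tested, and the sequence before another start site would differ.

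In the RefSeq windows of 250 bases before to 50 bases after each start site, 34 windows were available for 32 of the 39 genes. Searched on both strands, TGACNNNGC was in 5 of the 34 windows (14.7%), against 12.4% of 32851 windows of all genes. CCAAT was in 14 of 34 (41.2%), against 37.4% of all windows. The interferon-stimulated response element was in 3 of 34 (8.82%), against 3.44%. Its 3 holders were Psmb3, Psmd4 and Psmd9, none of them an immunoproteasome subunit. Psmb3 fell in HFD against LFD fat, and Psmd4 and Psmd9 did not pass in any comparison. The median GC content was 56.0% in the 34 windows and 52.7% in all. No motif contains another, and a match describes letters only. TGACNNNGC was held by Psmb6 (above), Psmb5, Psmd9, Psmc6 and Psmd12, of which the following 4 sites are shown with their flanks on the strand of the gene, the motif in capitals.
Psmb5 (chr14:54618024-54618052, minus strand): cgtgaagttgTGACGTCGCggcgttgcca
Psmd9 (chr5:123228149-123228177, plus strand): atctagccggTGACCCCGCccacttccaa
Psmc6 (chr14:45329587-45329615, plus strand; motif on the other strand): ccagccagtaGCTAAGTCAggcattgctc
Psmd12 (chr11:107479278-107479299, plus strand; motif on the other strand): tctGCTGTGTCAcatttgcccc
Of these 5 holders, Psmb6 and Psmd12 rose in HFD over LFD fat and Psmb6 fell in HFD_CR against HFD fat. Psmb5, Psmd9 and Psmc6 differed by 0.01, 0.03 and -0.03 log2 units between HFD and LFD fat, and none of these passed.

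Among the assembly chaperones, Psmd10 (gankyrin), which holds an ATPase of the 19S base during assembly, had the largest difference of the 39 genes in both comparisons with HFD mice. Its signal was 9.65, 9.53, 9.39, 9.56 and 9.54 in the HFD_CR mice, between 9.83 and 10.19 in the HFD mice with a median of 10.01, and between 9.37 and 9.50 in the LFD mice with a median of 9.44. Every HFD mouse lay above every mouse of the other groups, and HFD_CR and LFD mice overlapped. Psmd10 rose by 0.58 ± 0.06 (SE; limma adjusted p = 8.59e-07) in HFD over LFD fat. In HFD_CR fat it fell by 0.48 against HFD fat (SE 0.06; limma adjusted p = 3.79e-05; 0.715-fold), and its difference between HFD_CR and LFD fat was 0.10, with a 95% interval of -0.03 to 0.23 (limma adjusted p = 0.397). The other chaperones did not follow it past the threshold: Psmd9 differed by 0.03 and Psmd5 by -0.14 between HFD and LFD fat. Psmd5 was 0.20 log2 units lower in HFD_CR than in LFD fat (SE 0.07; limma adjusted p = 0.0892), and this difference passed in several alternatives, among them leaving out LFD mouse 2.

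In the ATPase ring of the 19S particle, Psmc2, Psmc3 and Psmc4 rose in HFD over LFD fat, and Psmc1, Psmc5 and Psmc6 did not pass, with differences between -0.03 and 0.03. Psmc4 read 11.24, 11.26, 11.17, 11.23 and 11.23 in HFD_CR mice, 11.45 to 11.60 (median 11.53) in HFD mice and 11.10 to 11.29 (median 11.24) in LFD mice. The HFD mice stood apart from both other groups, and the HFD_CR mice lay within the range of the LFD mice. The difference was 0.30 ± 0.04 (SE; limma adjusted p = 2.95e-05) for HFD minus LFD and -0.29 (SE 0.04; limma adjusted p = 0.00014) for HFD_CR minus HFD. The 95% interval for HFD_CR minus LFD was -0.09 to 0.10.

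Psmc3 read 8.93, 8.86, 8.84, 8.92 and 8.84 in HFD_CR mice, 8.96 to 9.08 (median 9.02) in HFD mice and 8.70 to 8.91 (median 8.78) in LFD mice. Again no HFD mouse overlapped another group. It rose by 0.23 ± 0.04 in HFD over LFD fat (SE; limma adjusted p = 0.000324) and fell by 0.15 in HFD_CR against HFD fat (SE 0.04; limma adjusted p = 0.021). That fall did not pass without HFD_CR mouse 3 (adjusted p = 0.0563) or without HFD_CR mouse 5 (adjusted p = 0.0573). Nor did it pass with quantile normalization repeated (0.103) or without the 4 arrays with muscle or gland transcripts (0.0517). Psmc2 rose by 0.19 ± 0.06 (SE; limma adjusted p = 0.0207), which did not pass without HFD mouse 1, LFD mouse 4 or LFD mouse 5 (adjusted p between 0.0524 and 0.054).

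Of the 11 non-ATPase genes of the 19S particle, 5 rose in HFD over LFD fat (Psmd2, Psmd6, Psmd8, Psmd12 and Psmd13) and 1, Psmd11, fell. Of all genes 16.5% rose and 11.3% fell, and of genes above the median level, fitted alone, 29.9% and 18.7%. Psmd6, a scaffold subunit of the lid, read 10.00, 10.07, 9.76, 10.07 and 9.88 in HFD_CR mice, 10.13 to 10.38 (median 10.27) in HFD mice and 9.78 to 10.12 (median 9.88) in LFD mice. All 6 HFD mice were above all others, the lowest by a small margin. Its difference was 0.33 ± 0.07 for HFD minus LFD (SE; limma adjusted p = 0.00157) and -0.31 for HFD_CR minus HFD (SE 0.07; limma adjusted p = 0.00664).

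Psmd13, another lid scaffold subunit, read 8.77, 8.90, 8.79, 8.72 and 8.76 in HFD_CR mice, 8.97 to 9.08 (median 9.01) in HFD mice and 8.67 to 8.91 (median 8.85) in LFD mice, with the HFD mice again above all others. It rose by 0.20 ± 0.04 in HFD over LFD fat (SE; limma adjusted p = 0.00283) and fell by 0.23 in HFD_CR against HFD fat (SE 0.05; limma adjusted p = 0.00222). Psmd8 rose by 0.15 ± 0.04 in HFD over LFD fat (SE; limma adjusted p = 0.007), and its difference of -0.10 in HFD_CR against HFD fat did not pass (adjusted p = 0.119), although the 2 groups did not overlap. The rises of Psmd2 and Psmd12, both of 0.12, passed narrowly (limma adjusted p = 0.0406 and 0.0321) and each was lost when 1 of several mice was left out, HFD mouse 1 among them (0.0872 and 0.0774).

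Psmd11, a lid scaffold subunit known from human embryonic stem cells to promote proteasome assembly, went the other way. It read 9.93, 10.06, 9.97, 10.00 and 10.05 in HFD_CR mice, 9.76 to 10.00 (median 9.95) in HFD mice and 10.02 to 10.17 (median 10.11) in LFD mice. Every HFD mouse was below every LFD mouse, and HFD_CR mice overlapped both. The difference was -0.18 for HFD minus LFD (SE 0.04; limma adjusted p = 0.0039) and 0.08 for HFD_CR minus HFD (adjusted p = 0.267). The ubiquitin receptor Psmd4 and the deubiquitinase Psmd14 did not pass in any comparison, and their differences between HFD and LFD fat were 0.03 and 0.04.

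**Figure D2:**
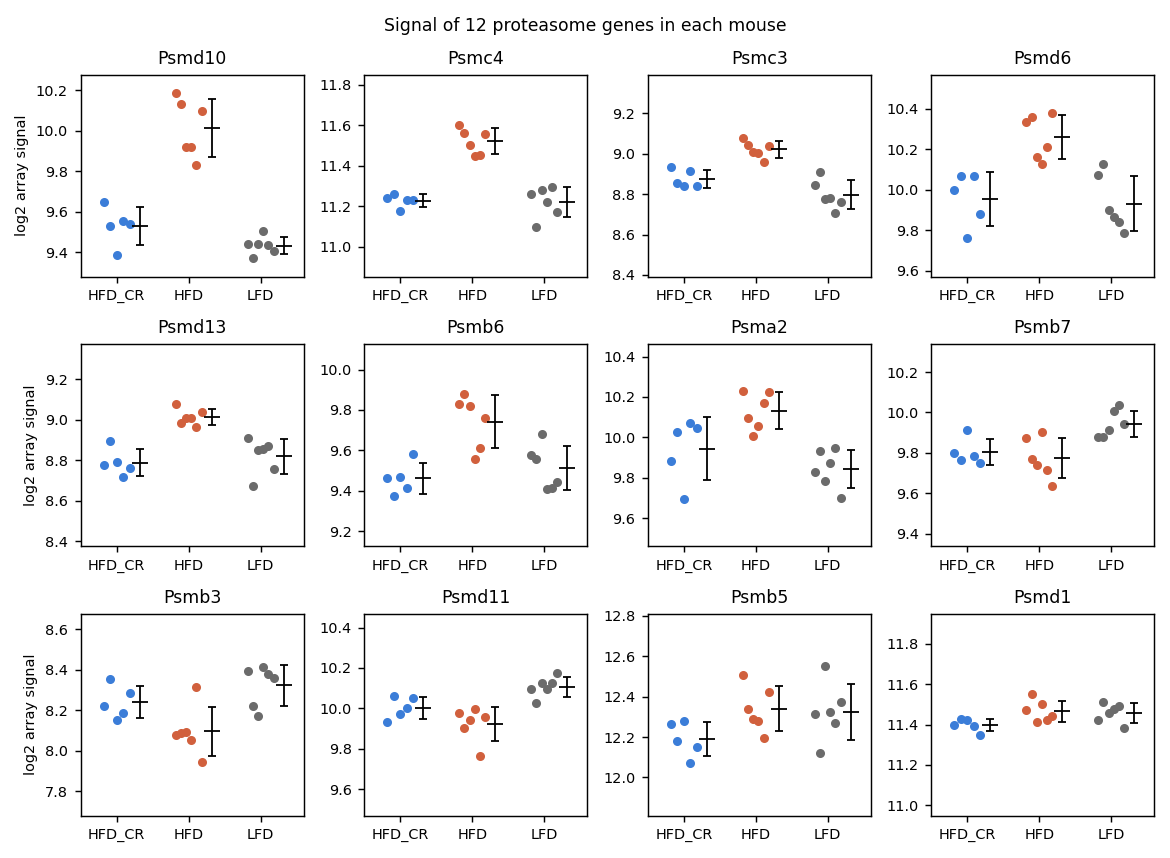
Log2 array signal (vertical axis) of 12 proteasome genes in each mouse of the HFD_CR, HFD and LFD groups, with the group mean and SD as bars beside the points. For Psmd10, Psmc4, Psmc3, Psmd6 and Psmd13 the HFD mice lie above all other mice, for Psmb7, Psmb3 and Psmd11 the HFD mean is below the LFD mean, and Psmb5 and Psmd1 serve as examples that passed in no comparison.

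In the 20S core, 3 of 13 genes rose in HFD over LFD fat (Psma2, Psma6 and Psmb6) and 2 fell (Psmb3 and Psmb7), a share called of 38.5%, against 27.8% of all genes. In the 19S particle 8 of 17 rose and 1 fell, a share of 52.9%. With only the genes above the median level fitted, 48.7% of all such genes were called. In that fit the same core and 19S genes were called, with the core's share below that value and the 19S share near it. The median difference was 0.04 in both, and the classes were not tested against each other. In HFD_CR against HFD fat 2 of 13 core genes fell (Psma1 and Psmb6, 15.4%), with a median difference of -0.08. In the 19S particle 4 of 17 fell (Psmc3, Psmc4, Psmd6 and Psmd13, 23.5%), with a median of -0.09. Of all genes 11.3% fell, and of genes above the median level, fitted alone, 21.7%. In that fit Psma2 fell as well in the core, and the same 4 genes of the 19S particle fell. By that measure both classes were near the latter value.

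Psma2, an alpha-ring subunit, read 9.89, 10.03, 9.69, 10.07 and 10.04 in HFD_CR mice, 10.01 to 10.23 (median 10.13) in HFD mice and 9.70 to 9.95 (median 9.85) in LFD mice. All HFD mice exceeded all LFD mice, while the HFD_CR mice spread over both. It rose by 0.29 ± 0.07 in HFD over LFD fat (SE; limma adjusted p = 0.0028), and its difference of -0.19 in HFD_CR against HFD fat did not pass (adjusted p = 0.07). Psma6 rose by 0.13 ± 0.04 (SE; limma adjusted p = 0.0313), which did not pass without HFD mouse 1, LFD mouse 5 or LFD mouse 6 (adjusted p between 0.0607 and 0.073).

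Psma1, also of the alpha rings, read 10.95, 10.98, 10.94, 10.84 and 10.90 in HFD_CR mice and 11.05 to 11.48 (median 11.19) in HFD mice, which did not overlap. LFD mice ran from 10.73 to 11.43 and covered nearly the whole span. Psma1 fell by 0.30 in HFD_CR against HFD fat (SE 0.10; limma adjusted p = 0.0363). This call was lost when any 1 of the 5 HFD_CR mice, or HFD mouse 1, 4 or 6, was left out (adjusted p between 0.0511 and 0.0847), and the difference then lay between -0.31 and -0.25. The rise over LFD fat, 0.17, passed only in alternatives without LFD mouse 3 (adjusted p = 0.0217 without that mouse alone).

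Among the constitutive catalytic subunits the 3 genes differed in direction. Psmb6, the caspase-like subunit, read 9.47, 9.37, 9.47, 9.41 and 9.58 in HFD_CR mice, 9.56 to 9.88 (median 9.79) in HFD mice and 9.41 to 9.68 (median 9.50) in LFD mice. The HFD mice were mostly high but overlapped both other groups at their low end. It rose by 0.23 ± 0.06 in HFD over LFD fat (SE; limma adjusted p = 0.0103) and fell by 0.28 in HFD_CR against HFD fat (SE 0.07; limma adjusted p = 0.00538).

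Psmb7, the trypsin-like subunit, read 9.80, 9.77, 9.91, 9.79 and 9.75 in HFD_CR mice, 9.64 to 9.90 (median 9.75) in HFD mice and 9.88 to 10.04 (median 9.93) in LFD mice. Both groups on the high-fat diet lay mostly below the LFD mice. Psmb7 fell by 0.17 in HFD against LFD fat (SE 0.05; limma adjusted p = 0.0155). HFD_CR minus HFD was 0.03 (adjusted p = 0.782) and HFD_CR minus LFD was -0.14, with a 95% interval of -0.25 to -0.03 (adjusted p = 0.114). Psmb5, the chymotrypsin-like subunit, differed by 0.01 between HFD and LFD fat (95% interval -0.13 to 0.15) and by -0.15 between HFD_CR and HFD fat (adjusted p = 0.159).

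Psmb3, a beta-ring subunit without catalytic activity, read 8.22, 8.35, 8.15, 8.19 and 8.29 in HFD_CR mice, 7.94 to 8.32 (median 8.08) in HFD mice and 8.17 to 8.42 (median 8.37) in LFD mice. HFD mouse 5, at 8.32, was the one HFD mouse among the LFD values. The difference was -0.23 for HFD minus LFD (SE 0.06; limma adjusted p = 0.00773) and 0.15 for HFD_CR minus HFD (adjusted p = 0.131; 0.0243 without HFD mouse 5).

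Of the immunoproteasome subunits, Psmb10 rose in HFD over LFD fat, and Psmb8 and Psmb10 were lower in HFD_CR than in HFD fat. Psmb10 read 10.10, 9.95, 9.91, 9.84 and 9.83 in HFD_CR mice, 10.02 to 10.35 (median 10.16) in HFD mice and 9.75 to 10.00 (median 9.81) in LFD mice. No HFD mouse overlapped the LFD mice, and HFD_CR mouse 1 alone among its group reached the HFD range. The difference was 0.33 ± 0.06 for HFD minus LFD (SE; limma adjusted p = 0.000474), -0.26 for HFD_CR minus HFD (SE 0.07; limma adjusted p = 0.00888) and 0.08 for HFD_CR minus LFD (adjusted p = 0.556).

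Psmb8 read 8.54, 8.49, 8.50, 8.42 and 8.52 in HFD_CR mice, 8.57 to 8.75 (median 8.67) in HFD mice and 8.41 to 8.72 (median 8.59) in LFD mice. HFD_CR and HFD mice did not overlap, but LFD mice spanned nearly both. Psmb8 fell by 0.18 in HFD_CR against HFD fat (SE 0.05, limma adjusted p = 0.0208). The adjusted p was 0.0613 without HFD_CR mouse 4 and 0.058 without the 4 arrays with muscle or gland transcripts. For Psmb8, HFD minus LFD was 0.11 (adjusted p = 0.13, and 0.0433 without LFD mouse 1). Psmb9 did not pass in any comparison: it read 8.64, 8.78, 8.73, 8.54 and 8.74 in HFD_CR mice, 8.57 to 8.88 in HFD mice and 8.56 to 8.91 in LFD mice. Its 95% interval for HFD minus LFD was -0.15 to 0.15.

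Each immunoproteasome subunit replaces 1 constitutive subunit, so the log2 difference within a mouse was compared between groups. Its size depends on the probes and only its change between groups is read; the 9 tests were exact 2-sided permutation tests over mice, adjusted over the 9. For Psmb10 minus Psmb7 the difference was 0.30, 0.19, -0.01, 0.05 and 0.08 in HFD_CR mice, 0.23 to 0.58 in HFD mice and -0.18 to 0.06 in LFD mice. The HFD mice lay wholly above the LFD mice, and HFD_CR mice lay between and touched both. The change was 0.50 for HFD minus LFD (exact permutation p = 0.00216, adjusted 0.0194), -0.29 for HFD_CR minus HFD (exact permutation p = 0.00866, adjusted 0.0324) and 0.22 for HFD_CR minus LFD (exact permutation p = 0.0108, adjusted 0.0324). The smallest p these group sizes allow is 0.00216. The change for HFD_CR minus LFD did not pass without HFD_CR mouse 1 (adjusted 0.0536), LFD mouse 2 or LFD mouse 5 (0.0585 each).

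Psmb9 minus Psmb6 moved in the opposite direction. The change was -0.23 for HFD minus LFD (exact permutation p = 0.0216, adjusted 0.0468) and 0.21 for HFD_CR minus HFD (exact permutation p = 0.026, adjusted 0.0468), in pairs of groups that overlapped, and -0.02 for HFD_CR minus LFD (exact permutation p = 0.771, adjusted 0.771). Single mice ended both calls: HFD minus LFD did not pass without HFD mouse 1, 2, 3 or 5 or without LFD mouse 1, 2 or 5 (adjusted exact permutation p between 0.0662 and 0.1), and HFD_CR minus HFD did not pass when any 1 of the 5 HFD_CR mice (0.0515 to 0.12), or HFD mouse 1, 2, 3, 5 or 6 (0.0571 to 0.1), was left out. The Psmb8 minus Psmb5 difference changed by 0.09 for HFD minus LFD (exact permutation p = 0.193, adjusted 0.29), with -0.03 and 0.06 in the comparisons with HFD_CR mice (exact permutation, adjusted 0.453 each). Without the 4 arrays with muscle or gland transcripts, described above, the changes kept their direction and no pair passed, with 0.49 (adjusted 0.0715) for Psmb10 minus Psmb7 in HFD minus LFD. With so few mice, 1 pair that alone of the 9 had a small p could not go below an adjusted 0.0715 in HFD minus LFD or in HFD_CR minus HFD. In HFD_CR minus LFD that limit would be 0.257. Small p-values in other pairs lower these limits.

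**Figure D3:**
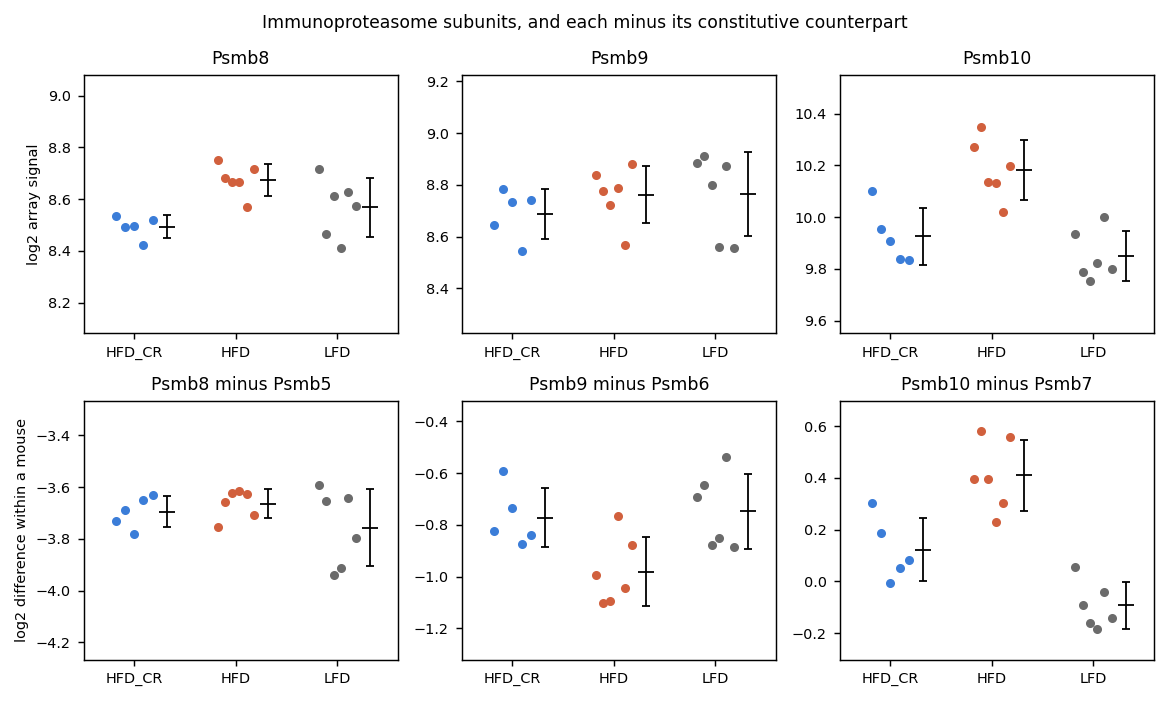
Upper row: log2 array signal (vertical axis) of Psmb8, Psmb9 and Psmb10 in each HFD_CR, HFD and LFD mouse, with mean and SD. Lower row: each of them minus its constitutive counterpart within the same mouse, in log2 units, where Psmb10 minus Psmb7 is 0.23 to 0.58 in HFD mice and -0.18 to 0.06 in LFD mice.

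In the gene order of RefSeq's mouse assembly, Psmb9 and Psmb8 lie in the MHC region on chromosome 17 beside Tap1 and Tap2, which encode the transporter that carries peptides to MHC class I molecules, while Psmb10 lies on chromosome 8 between Ctrl and Lcat. Psmb9 and Tap1 start within 225 bases of each other on opposite strands. The sequence between the start sites is shown because its 2 genes differed in their calls. The marked ATTGG is CCAAT read on the other strand, that is, its reverse complement.
Psmb9 to Tap1 (chr17:34187331-34187555 on GRCm38.p6, minus strand, which is that of Psmb9; ATTGG, the reverse of CCAAT, in capitals): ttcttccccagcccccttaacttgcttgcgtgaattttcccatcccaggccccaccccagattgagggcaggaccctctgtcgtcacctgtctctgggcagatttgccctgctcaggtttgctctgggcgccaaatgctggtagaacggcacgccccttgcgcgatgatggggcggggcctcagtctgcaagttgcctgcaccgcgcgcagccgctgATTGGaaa
Tap1 fell by 0.25 in HFD against LFD fat (SE 0.07; limma adjusted p = 0.00989) and was 0.29 lower in HFD_CR than in LFD fat (SE 0.07; limma adjusted p = 0.0145). Psmb9 differed by -0.0023 and -0.08 in the same comparisons, and whether the 2 genes differ from each other was not tested.

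The tissue-specific core variants were dim. Psma8 read 5.96 to 6.16 in HFD_CR mice, 5.97 to 6.26 (median 6.18) in HFD mice and 5.36 to 6.08 (median 5.90) in LFD mice, with overlap throughout, and LFD mouse 3 was the lowest. Psma8 rose by 0.32 ± 0.10 in HFD over LFD fat (SE; limma adjusted p = 0.017), at a level below the array median on all arrays. Without the 4 arrays with muscle or gland transcripts the difference was 0.20 and did not pass (adjusted p = 0.0802). Psma8 read 5.96 in HFD_CR mouse 1, in which a list of male germ cell markers was highest. Psmb11 differed by -0.02 and Psmc3ip by -0.01 between HFD and LFD fat, and neither passed in any comparison.

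Periprostatic fat holds several cell types, and in bulk tissue more cells of a type and more RNA per cell cannot be told apart. Leukocyte markers moved with the groups: their mean log2 signal over 8 genes was 9.68 to 10.0 in HFD_CR mice, 10.4 to 10.7 in HFD mice and 9.17 to 9.99 in LFD mice. Of the 8, 7 rose in HFD over LFD fat and 8 fell in HFD_CR against HFD fat, against 16.5% and 11.3% of all genes. All 10 macrophage markers rose and fell in the same comparisons, with list means of 10.2 to 10.5 in HFD_CR mice, 10.9 to 11.4 in HFD mice and 9.67 to 10.2 in LFD mice.

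Of the 9 cell cycle genes measured, all rose in HFD over LFD fat and fell in HFD_CR against HFD fat, with list means of 7.32 to 7.72 in HFD_CR mice, 8.16 to 8.84 in HFD mice and 7.13 to 7.40 in LFD mice. Adipocyte markers went the other way: 7 of 8 fell in HFD against LFD fat and 6 of 8 were higher in HFD_CR than in HFD fat. Of all genes 11.3% and 7.69% did so. Adipocyte list means were 12.5 to 12.7 in HFD_CR mice, 12.2 to 12.4 in HFD mice and 12.6 to 12.7 in LFD mice. No marker of these 4 lists lay below the array median on every array. The part of these cell types in the proteasome differences was not tested. No T cell or B cell marker passed by limma in any comparison. At an unadjusted limma p under 0.05 none of 7 T cell markers did. By the same measure 2 of 7 B cell markers were lower in HFD than in LFD fat, against 16.1% of all genes. In HFD_CR against LFD fat 3 of 7 were lower, against 9.12% of all genes.

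**Figure D4:**
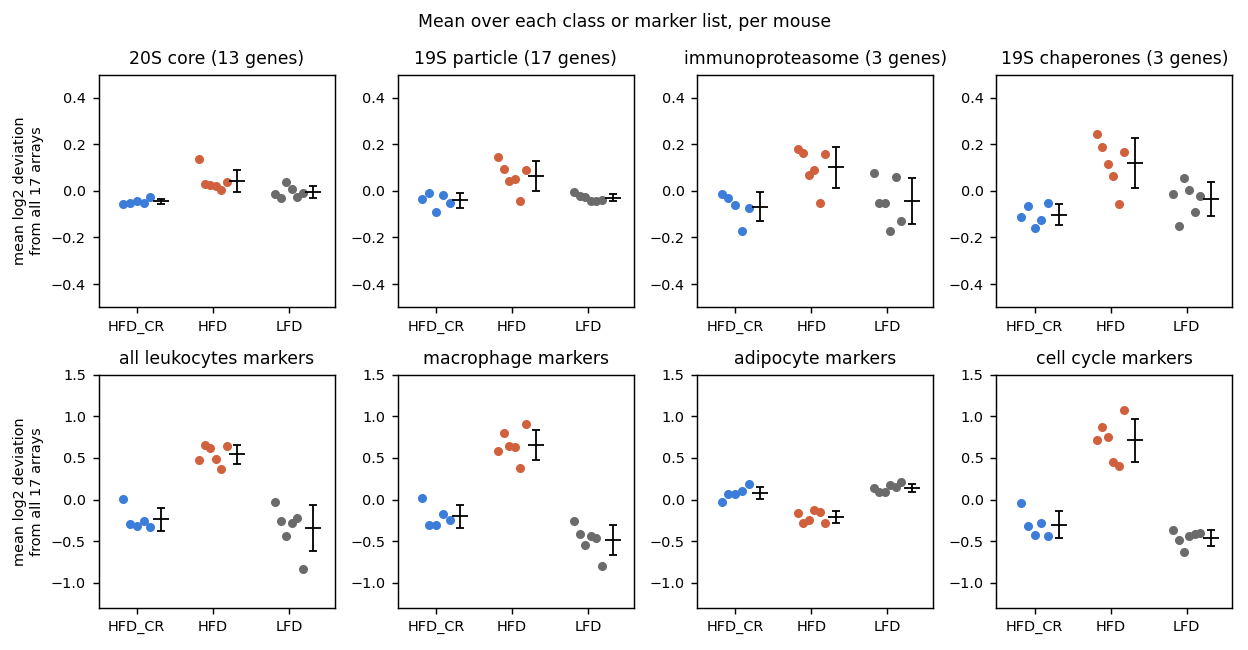
Mean log2 deviation from the mean of all 17 arrays (vertical axis), per mouse, for 4 proteasome classes in the upper row and 4 marker lists in the lower row, with group mean and SD; the 2 rows have different vertical scales. The 20S core runs from -0.06 to -0.03 in HFD_CR mice and from 0.0032 to 0.14 in HFD mice. In LFD mice it runs from -0.03 to 0.04 and overlaps the HFD mice. In the other classes shown, HFD mouse 5 lies within the range of the HFD_CR mice. Leukocyte, macrophage and cell cycle markers separate the HFD mice from both other groups.

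Genes that serve the proteasome were followed through 6 further lists with 65 genes, of which 53 were measured. Of all genes, 16.5% rose and 11.3% fell in HFD against LFD fat. In HFD_CR against HFD fat 7.69% were higher and 11.3% lower, and in HFD_CR against LFD fat 5.8% and 3.28%. Of genes above the median level, fitted alone, these shares were 29.9% and 18.7%, 15.8% and 21.7%, and 13.3% and 7.62%. No list was tested against them. Pomp, the maturation factor of the 20S core, rose by 0.34 ± 0.08 in HFD over LFD fat (SE; limma adjusted p = 0.00193) and fell by 0.37 in HFD_CR against HFD fat (SE 0.08; limma adjusted p = 0.00267). It averaged 9.79 ± 0.17 in HFD_CR mice (SD, n = 5), 10.16 ± 0.12 in HFD mice and 9.82 ± 0.11 in LFD mice (SD, n = 6 each). The other 4 measured assembly factors, Psmg1 to Psmg4, did not pass in HFD against LFD fat, and Psmg4 fell by 0.19 in HFD_CR against HFD fat (limma adjusted p = 0.0329). Between HFD_CR and LFD fat none passed, and the strongest were Psmg4 at -0.09 and Psmg3 at -0.08.

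Of 10 activators, inhibitors and partners of the 19S particle, 3 rose and 1 fell in HFD against LFD fat. Among genes above the median level, fitted alone, 29.9% rose and 18.7% fell. Uchl5, a deubiquitinase bound to the 19S particle, rose by 0.42 ± 0.09, the small 19S subunit Sem1 by 0.34 ± 0.06 and the activator Psme4 (PA200) by 0.28 ± 0.04 (SE; limma adjusted p = 0.00224, 0.000439 and 5.73e-05). Psme1, a subunit of the interferon-inducible activator PA28, fell by 0.27 (SE 0.06; limma adjusted p = 0.00298), while its partner Psme2 differed by -0.08 and did not pass. In HFD_CR against HFD fat Sem1 fell by 0.36 and Psme4 by 0.17 (limma adjusted p = 0.000684 and 0.0113), and Uchl5 differed by -0.27 (adjusted p = 0.0678). Between HFD_CR and LFD fat none passed, with Psme4 at 0.11 and Psme1 at -0.15.

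Among 8 genes of transcription and nuclear import, Nfe2l1, the factor known to raise proteasome genes when the proteasome is inhibited, differed by 0.04 between HFD and LFD fat and did not pass. Ngly1, the enzyme that activates the Nfe2l1 protein by removing its sugars, fell by 0.26 in HFD against LFD fat and was 0.24 higher in HFD_CR than in HFD fat (SE 0.05 and 0.06; limma adjusted p = 0.00123 and 0.00471). Nfe2l2, the regulator of the oxidative stress response, rose by 0.28 ± 0.05 in HFD over LFD fat and was still 0.20 higher in HFD_CR than in LFD fat (limma adjusted p = 0.000423 and 0.023). Its partners Maff and Mafk rose by 0.52 and 0.37 in HFD over LFD fat, and Akirin2, which carries proteasomes into the nucleus, rose by 0.16 (limma adjusted p = 0.000419, 0.000299 and 0.0052). Mafk was 0.32 higher in HFD_CR than in LFD fat (limma adjusted p = 0.00596).

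Of 9 measured genes of ubiquitin supply and delivery, Uba6, a ubiquitin-activating enzyme, rose by 0.38 and Sqstm1 (p62), an autophagy receptor for ubiquitin, by 0.36 in HFD over LFD fat (SE 0.06 and 0.04; limma adjusted p = 0.000105 and 2.81e-06). In HFD_CR against HFD fat both were lower, by 0.25 and 0.16 (limma adjusted p = 0.00944 and 0.0147). Vcp, the ATPase that extracts ubiquitin-tagged proteins, and Ubqln4, a shuttle to the proteasome, were lower in HFD_CR fat than in either other group, by 0.17 and 0.22 against HFD fat and 0.15 and 0.22 against LFD fat (limma adjusted p = 0.00298, 0.0273, 0.0138 and 0.0416). Ubqln2, another shuttle, and Sqstm1 were 0.23 and 0.20 higher in HFD_CR than in LFD fat (limma adjusted p = 0.0197 and 0.00593).

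Of 11 genes of MHC class I peptide loading, Calr, Canx, Pdia3 and H2-K1 rose in HFD over LFD fat by 0.18 to 0.23, and all 4 were lower in HFD_CR than in HFD fat, by 0.17 to 0.35. Tapbp, which bridges Tap and MHC class I molecules, was also lower, by 0.20 (limma adjusted p = 0.0138). Calr, a chaperone of the loading complex, had the largest of these, at -0.35 in HFD_CR against HFD fat (SE 0.05; limma adjusted p = 0.000138). Tap1, given above, and Nlrc5, the transactivator of MHC class I genes, fell in HFD against LFD fat, Nlrc5 by 0.27 (limma adjusted p = 0.0238), and Tap2 and B2m did not pass in any comparison.

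Of 10 genes of interferon gamma signalling, Irf8, a transcription factor of myeloid cells, rose by 0.97 ± 0.12 in HFD over LFD fat and fell by 0.96 in HFD_CR against HFD fat (SE 0.13; limma adjusted p = 9.33e-06 and 5.18e-05). The receptor chain Ifngr2 rose by 0.62 and fell by 0.53, and the kinase Jak1 rose by 0.26 and fell by 0.16, in the same comparisons (limma adjusted p = 8.08e-07, 2.87e-05, 0.000438 and 0.0288). Cxcl9, a chemokine induced by interferon gamma, fell by 0.83 in HFD against LFD fat (SE 0.07; limma adjusted p = 5.86e-08) and was 0.47 higher in HFD_CR than in HFD fat (SE 0.07; limma adjusted p = 0.000121). Against LFD fat, HFD_CR fat had Cxcl9 lower by 0.36 and Irf1, an interferon-induced transcription factor, higher by 0.17 (limma adjusted p = 0.00304 and 0.0493). The receptor chain Ifngr1 was 0.17 higher in HFD_CR than in HFD fat (limma adjusted p = 0.0212). Ifng itself differed by -0.04 between HFD and LFD fat and did not pass. The leukocyte markers given above moved with these groups, and their part in these values was not tested.

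**Figure D5:**
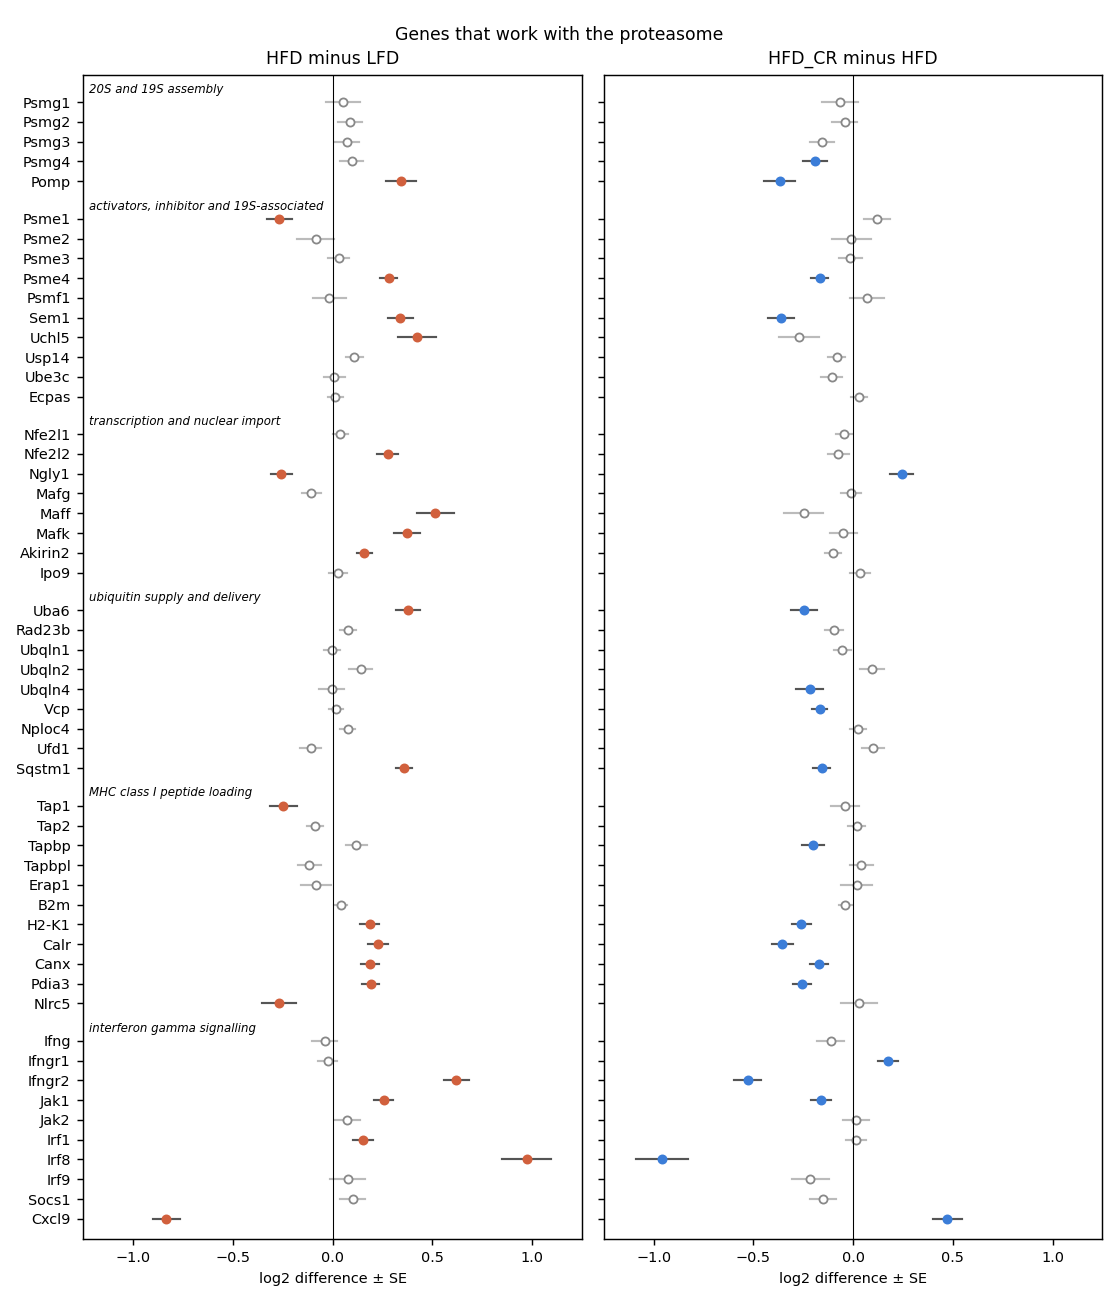
Log2 differences with SE (horizontal axis) of the 53 measured genes of the 6 further lists, for HFD minus LFD on the left and HFD_CR minus HFD on the right; filled points passed the adjusted p. Irf8 lies at 0.97 and -0.96, and Cxcl9 at -0.83 and 0.47, on opposite sides of the other genes.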

How the data were processed

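Total RNA of periprostatic fat from 17 separate mice, with RNA integrity numbers above 7 per the labels' protocols, was hybridised to 1 array each. The deposited values are log2 signals per probe set. The authors' tools, per the submitters' processing notes, include R 3.5.0, RMA and limma, with no role or order given. The table held 33793 probe sets, of which 23521 carried 1 gene symbol in the platform annotation, 1814 several and 8458 none. The brightest probe set of each gene was kept, and no dim genes were removed. No pair of arrays was identical (highest correlation 0.9971).

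One mean per group was fitted per gene by lmFit and eBayes (R 4.3.3, limma 3.58.1, with 14 residual and 3.625 prior degrees of freedom), with Benjamini-Hochberg adjustment over 22180 genes and a threshold of 0.05. The fit was tested on simulated data. Within-mouse differences of 3 subunit pairs were compared by exact permutation in Python 3.11.15, and figures were drawn with matplotlib 3.10.9. The proteasome genes and all lists were chosen with earlier results of these data known. Named with values were the 3 largest passing rises and falls per role (the 2 smallest p-values where none passed), Psmb5 to Psmb10, the variants, and up to 4 passing genes per further list; other genes, such as Psmd2, Psmd4, Psmd12, Psmd14, Psme2, Nfe2l1, Ifng, Tap2 and B2m, were named after their values were seen.

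Promoter windows are RefSeq's for GRCm38.p6. Psma8, Psmb1, Psmb2, Psmb7, Psmc3, Psmd3 and Psmd7 had none. The files name no build, so no other positions are given. Mice with the same number in different groups were checked for shared deviations. Of 16 such pairs, 5 correlated above 0.1, with a median of 0.0414, against -0.0241 for other pairs. The highest, 0.409, was between HFD and LFD mice 3, both high in gland markers. The next, 0.303, was between HFD_CR and LFD mice 2, both high in muscle markers. The check cannot settle whether the numbers pair the mice, and the main tests treated the mice as unpaired. Alternatives covered each mouse left out, arrays with other tissue, scaling, filters, array weights and stricter thresholds.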

Additional observations from a re-analysis of the deposited data

Results flagged for a closer look

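In 126 sets of 5 or 6 mice (39 genes and 3 subunit pairs in 3 groups), 7 values stood far from the rest of their group by Dixon's test, which by chance marks about 1 in 20 sets. HFD mouse 1 was high for Psma6 (11.63, others 11.39 to 11.45), Psma7 (9.793, others 9.255 to 9.45) and Psmb1 (10.83, others 10.59 to 10.66). HFD_CR mouse 3 was high for Psma7 (9.527, others 9.189 to 9.263) and Psmb7 (9.914, others 9.751 to 9.798). LFD mouse 6 was high for Psmb1 (10.72, others 10.6 to 10.62). HFD mouse 5 was high for Psmb11 (6.728, others 5.992 to 6.262), a gene below the array median on all arrays. Of these genes, Psma6 and Psmb7 passed in HFD against LFD fat, and the call of Psma6 did not pass without HFD mouse 1 (limma adjusted p = 0.073).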

How the results depend on the processing

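No member's called difference reversed under any alternative, and apart from the 2 stricter thresholds 12 of the 17 calls in HFD against LFD fat and 6 of the 9 in HFD_CR against HFD fat (Psmb6, Psmb10, Psmc4, Psmd6, Psmd10 and Psmd13) passed in every one. Psma6, Psmc2, Psmd2 and Psmd12 did not pass in HFD against LFD with quantile normalization repeated (limma adjusted p 0.104 to 0.218) or arrays centred (0.0531 to 0.158). Nor did Psma1 in HFD_CR against HFD (0.0617 and 0.0529). At a size of at least 1.5-fold, no gene was called in any direction (0 higher and 0 lower in HFD against LFD, 0 lower in HFD_CR against HFD). Of all genes 3.74%, 1.36% and 2.27% were called there. At an adjusted p under 0.01, 8 proteasome genes were higher in HFD than in LFD fat, against 12.2% of all genes. The count higher in HFD_CR than in HFD fat was 1 with quantile normalization repeated (Psmd11, against 10.4% of all genes) and 1 with array weights (Psmb3, against 11.9%). The count lower in HFD_CR than in LFD fat was 1 among genes above the median level, 1 with quantile normalization repeated (Psmd5 in both) and 2 with array weights (Psmb7 and Psmd5). Of all genes fitted 7.62%, 4.34% and 4.28% were lower there. Leaving out 1 mouse at a time gave 10 to 15 higher (14.9% to 17.8% of all genes) and 3 to 4 lower (9.41% to 11.4%) in HFD against LFD. In HFD_CR against HFD it gave 0 to 1 higher (5.85% to 8.08% of all genes) and 7 to 10 lower (9.02% to 12.8%), the 1 being Psmb3 without HFD mouse 5. In HFD_CR against LFD it gave 0 higher (4.4% to 6.49% of all genes) and 0 to 2 lower (2.35% to 4.13%), the 2 being Psmd3 and Psmd5 without LFD mouse 2. For the subunit pairs it gave -0.27 to -0.19 and 0.16 to 0.25 for Psmb9 minus Psmb6 in HFD against LFD and HFD_CR against HFD, and for Psmb10 minus Psmb7 0.47 to 0.54 in HFD against LFD, -0.33 to -0.25 in HFD_CR against HFD and 0.17 to 0.25 in HFD_CR against LFD. The changes kept their direction, but single mice ended both Psmb9 minus Psmb6 calls and the HFD_CR against LFD call of Psmb10 minus Psmb7. Without the 4 arrays with muscle or gland transcripts these 5 changes were -0.22, 0.14, 0.49, -0.31 and 0.18 (exact permutation, adjusted p 0.185, 0.185, 0.0715, 0.143 and 0.185). If 1 pair alone had a small p, it could not go below 0.0715 there (0.257 in HFD_CR against LFD), and small p-values in other pairs lower these limits. Without LFD mice 3 and 6, Psmb10 minus Psmb7 in HFD_CR against LFD was 0.19 (exact permutation, adjusted p = 0.0857). With mice of the same number treated as a replicate block, 12 genes were higher and 3 lower in HFD against LFD, against 16.3% and 11.0% of all genes. The counts were 0 and 8 in HFD_CR against HFD (7.29% and 10.8% of all genes), and 0 and 0 in HFD_CR against LFD (5.16% and 2.84%). The 5 pair changes were then -0.23, 0.23, 0.50, -0.26 and 0.21 (exact test over same-number mice, adjusted p 0.225, 0.225, 0.188, 0.188 and 0.188). With 6 or 5 same-number pairs no exact p can go below 0.0312 or 0.0625.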
